A study of Homo sapiens with 15 samples.

Results

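HOX genes encode the homeobox transcription factors that give cells their position along the body axis. In humans they lie in 4 clusters, HOXA to HOXD, on 4 chromosomes, and are numbered by paralog group from the 3′ to the 5′ end of each cluster. Low numbers are switched on first and toward the head, high numbers later and toward the tail, and Polycomb and Trithorax complexes hold the silent and active states through cell division. Retinoic acid is a known inducer of the 3′ genes, and PBX and MEIS proteins bind DNA together with HOX proteins. The lung keeps a positional code of HOXA and HOXB genes, of which HOXA5 is needed for normal airway development in mice.

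All genes of the deposited count table that carry one of 38 listed HOX symbols were described, which was 38 of 58219 genes (10 HOXA, 10 HOXB, 9 HOXC and 9 HOXD). They were taken by symbol and not by a cut on any measured value, with earlier results of these data known. RNA came from BEAS-2B, a human bronchial epithelial line transformed with viral genes and grown here without serum, so no primary airway cell was studied. PM2.5, fine particulate matter, was collected from Beijing air. For 24 h, cells received vehicle (24-h control), 1 µg/cm2 or 30 µg/cm2 once. In a protocol of 7 days, they received vehicle (daily control) or 1 µg/cm2 daily and were washed between exposures, and the study's methods count 1 exposure fewer than the labels do. Every condition was run in 3 experiments, so there were 15 libraries, and the last number of a sample name marks the experiment. Experiments of the 24-h and of the daily protocol are numbered separately, and the daily cells were plated at a lower density.

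Libraries held 21460981 to 34724765 counts on genes (median 29243177). The bronchial epithelial markers fixed for the line were tested in 8 of 8 cases, and none of the 3 endothelial markers reached the level for testing. Summed epithelial markers lay at 3671 to 4186 CPM (counts scaled to library size) in 24-h controls and at 1575 to 2633 CPM after 30 µg/cm2. In the daily protocol they lay at 3001 to 3577 CPM in controls and 1962 to 2235 CPM after PM2.5. The 10 mesenchymal markers, all tested, summed to 1752 to 2912 CPM in 24-h controls, 1682 to 2659 CPM after 30 µg/cm2, 950 to 1058 CPM in daily controls and 624 to 654 CPM after daily PM2.5. CD14 was tested among 3 leukocyte markers. The epithelial sum was thus lower without overlap after both the high dose and the daily exposure. The mesenchymal sum overlapped its controls after the high dose and lay below them after daily PM2.5. The leukocyte sum lay at 10.9 to 12.9 CPM in 24-h controls, 14.2 to 23.4 after 1 µg/cm2, and 2.30 to 17.8 after 30 µg/cm2, and after daily PM2.5 it lay below its controls (10.9 to 12.2 CPM), down to 7.11 CPM. The part of these differences in the HOX results was not tested. Experiment 2 of the 24-h protocol stood apart from experiments 1 and 3 in all conditions, and HOX calls are therefore also given without it. Those fits rest on experiments 1 and 3 alone in each 24-h condition. After daily PM2.5, library 3 differed from libraries 1 and 2 by a chi-square per degree of freedom, over gene counts, of 25.5 and 19.7. Libraries 1 and 2 differed from each other by 4.69. In the 24-h conditions, experiment 2 differed from the others by 76.6 to 181. The 3 experiments of a condition were independent by the series record. In the fit of all 15 libraries, p-values measure the spread between experiments within conditions, pooled for each gene over both protocols. The spread of the 24-h libraries thus enters the daily tests as well.

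Promoter windows of 300 bases (250 before and 50 after a transcription start, RefSeq, GRCh38.p14) were matched by symbol for 20 of the 38 members. Of the 11 tested members HOXA3 was matched, and HOXA5, HOXB2, HOXB3, HOXB4, HOXB7, HOXB9, HOXC6, HOXC8, HOXC9 and HOXC13 had no entry. A window each is shown for HOXA3, the tested member with an entry (outermost start, chr7:27152534-27152833, minus strand), HOXB1, the silent 3′ end of the HOXB cluster (chr17:48530962-48531261, minus strand), and HOXD8, the HOXD gene with the most counts (chr2:176129455-176129754, plus strand). Capitals mark GCGTG on either strand, the core letters bound by the aryl hydrocarbon receptor, which senses the polyaromatic hydrocarbons of urban particles.
HOXA3: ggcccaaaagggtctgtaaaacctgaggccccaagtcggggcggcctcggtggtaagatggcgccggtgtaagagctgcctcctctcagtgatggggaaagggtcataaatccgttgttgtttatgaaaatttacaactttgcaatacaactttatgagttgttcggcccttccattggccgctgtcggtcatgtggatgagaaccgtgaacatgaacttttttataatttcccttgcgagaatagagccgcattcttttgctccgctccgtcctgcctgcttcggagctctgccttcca
HOXB1: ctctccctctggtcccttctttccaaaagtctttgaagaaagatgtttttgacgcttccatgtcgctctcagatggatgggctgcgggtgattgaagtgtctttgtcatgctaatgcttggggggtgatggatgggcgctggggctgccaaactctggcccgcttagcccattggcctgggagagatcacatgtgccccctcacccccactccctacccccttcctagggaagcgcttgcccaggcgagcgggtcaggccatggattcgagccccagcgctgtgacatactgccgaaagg
HOXD8: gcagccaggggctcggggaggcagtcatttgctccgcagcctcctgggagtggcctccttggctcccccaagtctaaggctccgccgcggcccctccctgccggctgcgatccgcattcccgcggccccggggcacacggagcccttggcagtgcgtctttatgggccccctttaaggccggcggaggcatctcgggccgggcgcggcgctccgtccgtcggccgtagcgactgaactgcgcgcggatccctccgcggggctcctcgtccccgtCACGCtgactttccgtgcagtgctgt
GC content was 50.7% in the HOXA3, 58.0% in the HOXB1 and 71.7% in the HOXD8 window. On both strands, GCGTG was found in 11 of 26 distinct HOX windows, against 36.5% of 35093 windows of all genes. HOXA3 has several starts and so several of these windows. The HOXA3 window shown had no GCGTG, but windows at other HOXA3 starts did. There were 2 matches each at chr7:27150901-27151200 and chr7:27113793-27114092, and 1 at chr7:27122323-27122622. TGACNNNGC, the letters of the antioxidant response element, was in 3 of 26 (13.4% of all windows). TGATTNAT, a joint HOX and PBX site, was in 2 of 26 (2.82% of all). TGANTCA, the AP-1 site, was in 0 of 26 (7.71% of all). Each motif was counted on its own, and matches that overlap between motifs were not merged. A match is a description of the letters and not a measured site.

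BEAS-2B cells expressed mainly the HOXB cluster. HOXB genes gave 87.7% to 95.6% of the counts of the 38 members in a library, HOXC genes 2.60% to 7.02%, HOXA genes 1.83% to 5.31% and HOXD genes 0% to 0.566%. Per length, HOXB7 (mean 18.7 TPM, counts scaled to exon length and library size, over the 15 libraries) and HOXB2 (17.9 TPM) were the highest, followed by HOXB4 (5.47 TPM), HOXB3 (4.72 TPM) and HOXB9 (1.87 TPM). Between HOXB4 and HOXB7, the neighbouring HOXB5 and HOXB6 had at most 5 and 10 counts in any library, and HOXB8 at most 3. The cluster was thus unevenly read, with abundant and nearly silent genes side by side. No listed gene outside HOXB had a mean above 1 TPM, HOXC9 being the next at 0.995 TPM.

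**Figure D1:**
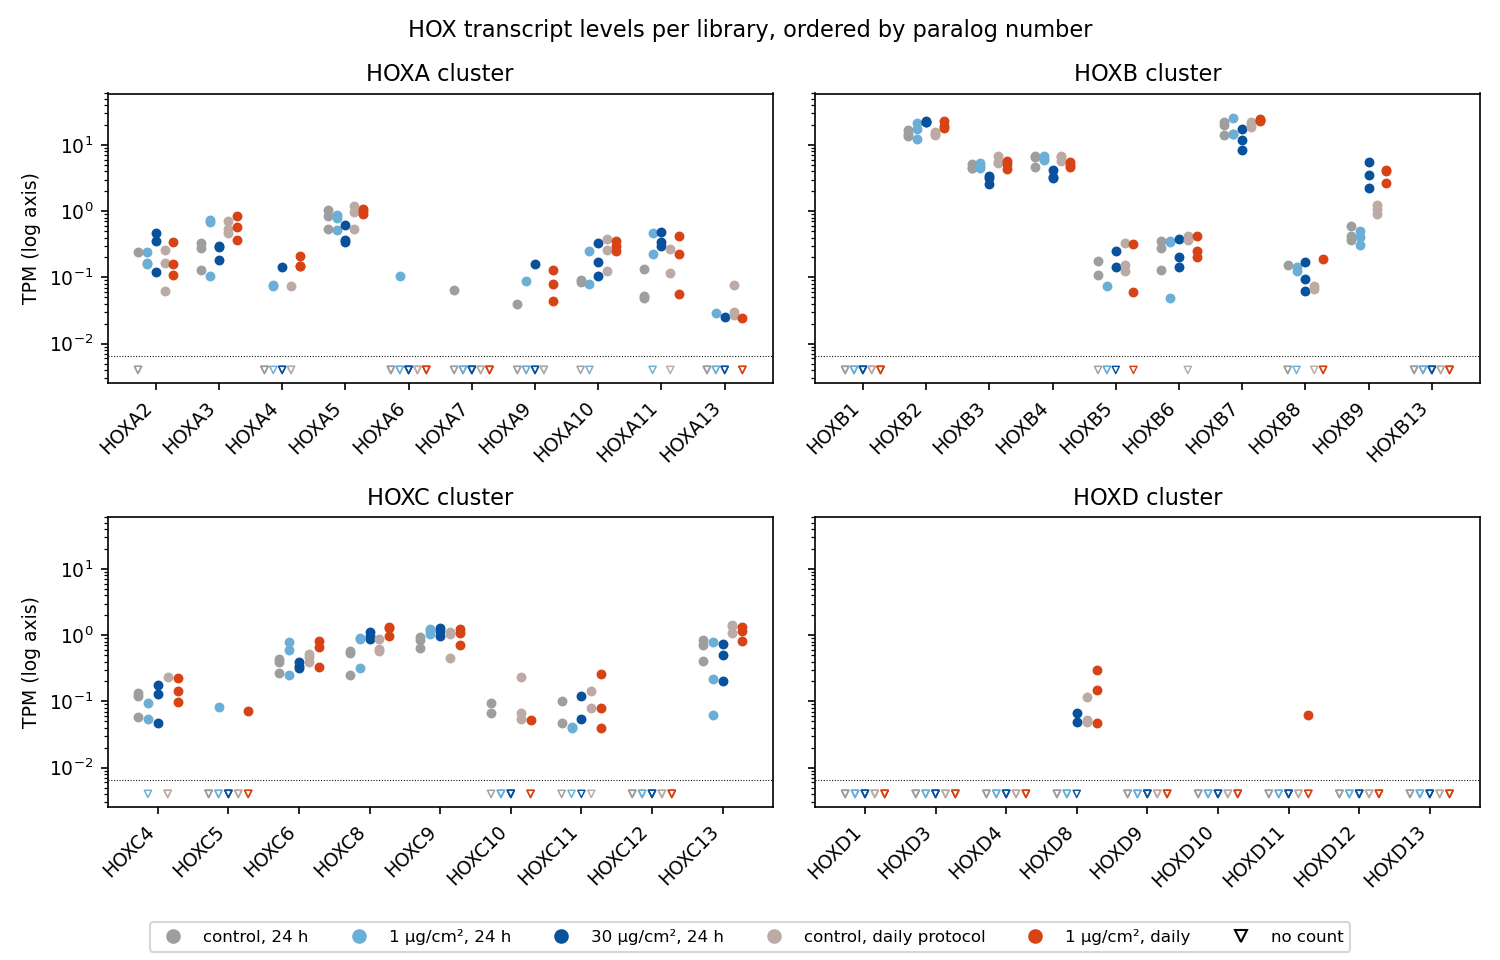
HOX transcript levels by cluster. Each filled point is 1 library (y axis, TPM on a log axis) and genes are ordered by paralog number within each cluster, with colour for the condition and open triangles below the dotted line for conditions in which a library had no count. HOXB2, HOXB3, HOXB4 and HOXB7 stand highest, and HOXB9 lies at 0.311 to 0.603 TPM in the 6 libraries of the 24-h control and 1 µg/cm2 conditions and at 2.24 to 5.47 TPM after 30 µg/cm2.

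Of the 38 members, 11 had enough counts to be tested, and these were HOXA3, HOXA5, HOXB2, HOXB3, HOXB4, HOXB7, HOXB9, HOXC6, HOXC8, HOXC9 and HOXC13, among 17599 genes tested in all. Another 10 members (HOXA2, HOXA9, HOXA10, HOXA11, HOXB5, HOXB6, HOXC4, HOXC10, HOXC11 and HOXD8) passed 3 counts in at least 1 library and were not tested. A further 7 (HOXA4, HOXA6, HOXA7, HOXA13, HOXB8, HOXC5 and HOXD11) had at most 3 counts in every library. The last 10 (HOXB1, HOXB13, HOXC12, HOXD1, HOXD3, HOXD4, HOXD9, HOXD10, HOXD12 and HOXD13) had no count in any of the 15 libraries, which over the 426923974 pooled counts allows up to 0.00703 CPM. That limit covers counting error only.

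HOXB9, a 5′ gene of the HOXB cluster, rose with the high dose and with the repeated low dose. It had 14, 6 and 9 counts in the 24-h controls (experiments 1, 2 and 3), 6, 7 and 10 after 1 µg/cm2 for 24 h, and 72, 59 and 81 after 30 µg/cm2. All 3 libraries of the high dose lay above every library of the other 24-h conditions. In the daily protocol it had 18, 17 and 25 counts in controls and 81, 89 and 52 after PM2.5, again without overlap. In bulk RNA, more cells that express the gene and more RNA per cell cannot be told apart. Scaled, this was 0.341 ± 0.0720 CPM (SD, n = 3) in 24-h controls, 0.301 ± 0.0838 CPM after 1 µg/cm2, 2.76 ± 0.978 CPM after 30 µg/cm2, 0.671 ± 0.119 CPM in daily controls and 2.27 ± 0.564 CPM after daily PM2.5.

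**Figure D2:**
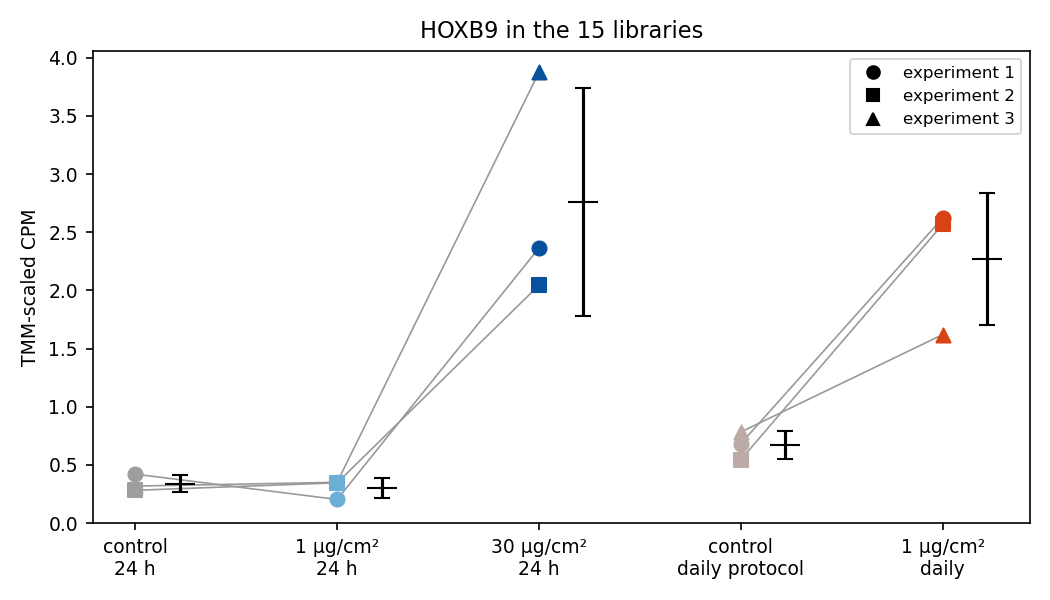
HOXB9 in the 15 libraries. Points are libraries (y axis, TMM-scaled CPM from 0), marker shape and grey lines give the experiment within each protocol, and the black bars beside them are the mean ± SD of 3 libraries. The libraries after 30 µg/cm2 for 24 h and after daily 1 µg/cm2 lie above all control libraries. After a single 1 µg/cm2, those of experiments 2 and 3 lie among the 24-h controls and that of experiment 1 lies below them.

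After 30 µg/cm2 for 24 h, HOXB9 was 7.86-fold higher than in control (log2 fold change 2.97, SE 0.346, adjusted p = 0.000144 by edgeR's quasi-likelihood test with Benjamini-Hochberg adjustment over all tested genes). Against 1 µg/cm2 at 24 h the log2 difference was 3.19 (SE 0.355, adjusted p = 0.000177). HOXB9 was the single HOX member called against control, where 8.07% of all tested genes were called. A call required an adjusted p below 0.05 together with a log2 change of 0.6 or more in either direction. Within experiments 1, 2 and 3 the log2 ratios to control were 2.49, 2.86 and 3.60. Both calls held when any 1 of the 15 libraries was left out, with log2 fold changes of 2.66 to 3.15 against control.

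A single dose of 1 µg/cm2 left HOXB9 at a log2 fold change of -0.22 (SE 0.398, 95% interval -1.0 to 0.56, adjusted p = 1 by edgeR). The same dose given daily left it 3.37-fold higher than in daily controls (log2 fold change 1.75, SE 0.318, adjusted p = 0.041, edgeR), and 0.227% of all tested genes were called in that comparison. The log2 ratios within experiments were 1.94, 2.23 and 1.05. In the fit without the block, that call was close to its threshold. It was lost without any of the daily controls 1, 2 or 3 (adjusted p = 0.190, 0.217 and 0.246 in edgeR), without daily PM2.5 library 1, 2 or 3 (0.180, 0.205 and 0.0926), and without 24-h control 1 or 3 (0.0677 and 0.0751), 24-h 1 µg/cm2 library 1 or 3 (0.0516 and 0.0700) or 24-h 30 µg/cm2 library 1 (0.0753), and kept in the other 4 cases. The log2 fold change itself moved between 1.62 and 1.94. With a replicate block for the experiment, it was 1.73 (edgeR adjusted p = 0.00517).

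The response of HOXB9 to daily PM2.5 exceeded its response to a single 1 µg/cm2 by 1.97 on the log2 scale (SE 0.510), but the difference did not pass adjustment over all genes (adjusted p = 0.409 in edgeR, and 0.0818 with the block). No tested gene of any kind did so without the block (0.0%), and 1.03% did with it. Without 24-h experiment 2 that difference was 2.17 with an edgeR adjusted p of 0.0173, in a fit that called 9.84% of all genes in this contrast. Set against the response to 30 µg/cm2, the daily response was lower by a log2 difference of -1.22 (SE 0.465, adjusted p = 0.219, edgeR), where 1.82% of all genes were called and 0 HOX members by edgeR or DESeq2, with 1 (HOXB9) at an unadjusted p under 0.05. With the block 1 member was called there (HOXB7), beside 14.6% of all genes. Dose, number of doses and time differ together in that contrast and cannot be told apart. Daily controls also held more HOXB9 than 24-h controls (log2 difference 0.95, SE 0.360, adjusted p = 0.0635, edgeR), with 17 to 25 against 6 to 14 counts.

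HOXB9 (chromosome 17, 48621159 to 48626356, minus strand, GRCh38) lies inside the span of HOXB7 (48607227 to 48633572, same strand). A 59-base first exon of HOXB7 lies beyond the HOXB9 start, so all HOXB9 exons sit in a HOXB7 intron. The exons of both genes shared 0 bases. HOXB7 itself did not rise with HOXB9 after 30 µg/cm2, with log2 ratios to control of -0.79, -0.12 and -0.83 in experiments 1, 2 and 3. After daily PM2.5 HOXB7 was above control in each experiment, by less than HOXB9 (0.10, 0.27 and 0.29). Per 100 HOXB7 counts there were 2.79 to 7.22 HOXB9 counts in 24-h controls, 2.67 to 5.75 after 1 µg/cm2, 22 to 76.4 after 30 µg/cm2, 8.02 to 10.5 in daily controls and 17.9 to 31.2 after daily PM2.5. By TPM, HOXB9 ranked 7 to 12 among the 38 members in the 24-h control and 1 µg/cm2 libraries and 3 to 5 after 30 µg/cm2. HOXB8, the gene between HOXB9 and the HOXB7 coding exons, had at most 3 counts throughout, and HOXB13 on the far side had none.

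**Figure D3:**
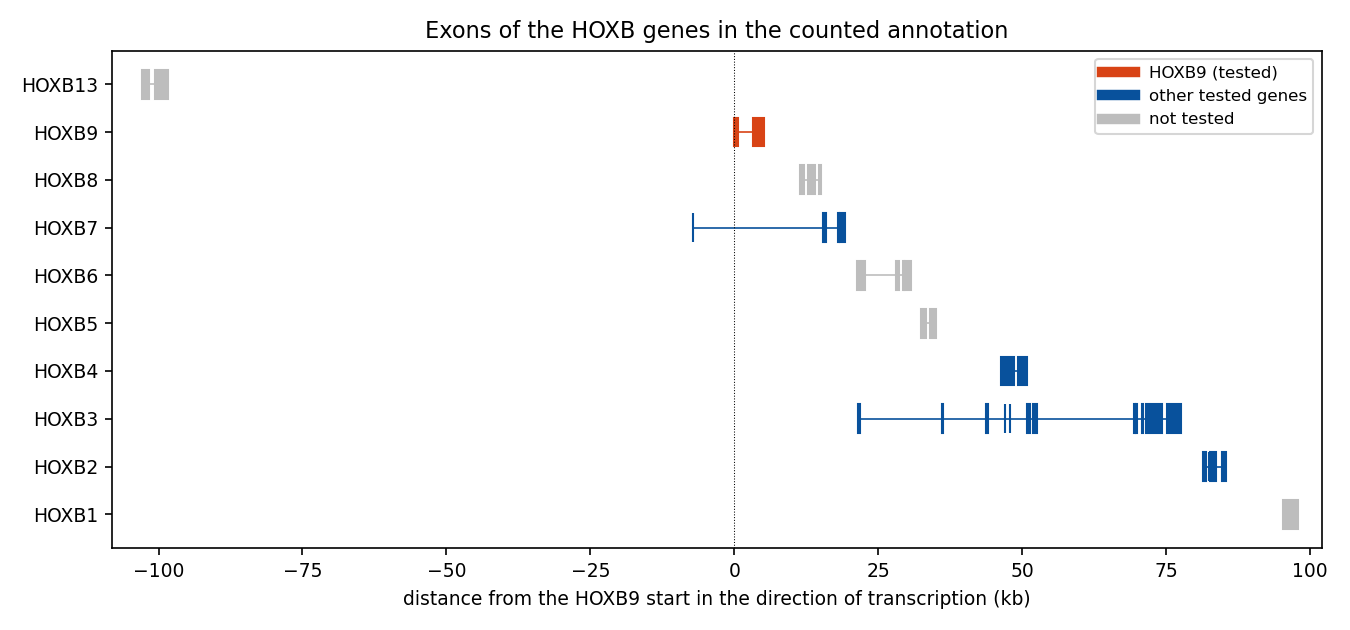
Map of the HOXB genes as they were counted. The x axis is the distance from the HOXB9 start in the direction of transcription (kb), boxes are exons and lines are introns, with HOXB9 in orange, the other tested genes in blue and genes not tested in grey. HOXB7 spans HOXB9 through a single small exon on the far side, and HOXB3 spans HOXB4, HOXB5 and most of HOXB6.

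HOXB2, a 3′ gene of the cluster that acts in hindbrain and neural crest patterning, lay above control in all experiments of the high-dose and of the daily exposure. Its counts were 312, 256 and 264 in 24-h controls, 300, 332 and 226 after 1 µg/cm2 and 432, 539 and 297 after 30 µg/cm2. Scaled to CPM, the high dose did not overlap its controls (15.7 ± 2.59 against 10.3 ± 1.55 CPM, SD, n = 3). The log2 ratios within experiments were 0.60, 0.63 and 0.60. The fitted change was 0.62 (log2, SE 0.226, adjusted p = 0.107 by edgeR), which did not pass, and 0.61 with the replicate block (SE 0.138, adjusted p = 0.00548), which did. In the daily protocol the counts were 219, 269 and 257 in controls and 323, 366 and 404 after PM2.5, with no overlap in CPM (log2 fold change 0.43, SE 0.226, adjusted p = 0.49, edgeR). HOXB2 shares 87 exon bases (3.72% of its exon length) with the antisense transcript HOXB-AS1, which had 34 to 86 counts, and the strand used in counting is not given in the sources used here.

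HOXB3, whose paralog group patterns the pharyngeal organs, was lower after the high dose. It had 304, 244 and 277 counts in 24-h controls, 297, 227 and 277 after 1 µg/cm2 and 199, 238 and 110 after 30 µg/cm2. In CPM the libraries of the high dose (5.26 to 8.25) lay below those of control (9.15 to 11.5). Against 1 µg/cm2 it fell by 0.63 on the log2 scale (SE 0.179, adjusted p = 0.0402, edgeR), one of 2 HOX members called there beside HOXB9, where 7.84% of all genes were called. Against control it was at -0.60 (log2, SE 0.179, adjusted p = 0.0499, edgeR), which rounds to the fold threshold from below and was not called, and with the block it was -0.61 (adjusted p = 0.00308). The call against 1 µg/cm2 was kept without 24-h control 1 or 2, 30 µg/cm2 library 2 or daily PM2.5 library 3. It was lost in edgeR without 24-h control 3 (adjusted p = 0.0514), 1 µg/cm2 library 1, 2 or 3 (0.0730, 0.0796 and 0.0686), 30 µg/cm2 library 1 or 3 (0.126 and 0.185), daily control 1, 2 or 3 (0.0621, 0.0567 and 0.0603) or daily PM2.5 library 1 or 2 (0.0600 and 0.0555). Daily PM2.5 left HOXB3 at 294, 349 and 245 counts against 268, 369 and 315 in controls (log2 fold change -0.23, SE 0.177, adjusted p = 0.661, edgeR).

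HOXB4, known for its role in the self-renewal of blood stem cells, had 229, 111 and 209 counts in 24-h controls, 194, 155 and 172 after 1 µg/cm2 and 96, 160 and 72 after 30 µg/cm2. Experiments 1 and 3 gave log2 ratios of -1.13 and -1.10 for the high dose against control, and experiment 2 gave 0.09. The fitted log2 fold change was -0.68 (SE 0.222, adjusted p = 0.0678 by edgeR) without the block and -0.72 (SE 0.207, adjusted p = 0.0201) with it, and -1.13 (adjusted p = 5.9e-05) without 24-h experiment 2. That last fit leaves out the experiment that differed and rests on experiments 1 and 3 alone at 24 h. After daily PM2.5 it had 158, 154 and 131 counts against 161, 191 and 166 in controls, lower in CPM without overlap (log2 fold change -0.35, SE 0.219, adjusted p = 0.566, edgeR). HOXB3 and HOXB4 share 159 exon bases on the same strand, HOXB3 and HOXB6 share 433, and HOXB3 shares 374 with HOXB-AS1 on the other strand, so counts of these genes are uncertain where reads fall there.

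HOXB7, the most abundant member per length and one studied as a growth-promoting factor in tumours, had its highest CPM in experiment 2 in each 24-h condition, controls included. The 24-h control library of experiment 2 held 21865374 counts on genes, against 34724765 and 30695157 in experiments 1 and 3. Its counts were 194, 215 and 254 in 24-h controls, 166, 262 and 174 after 1 µg/cm2, 103, 268 and 106 after 30 µg/cm2, 219, 212 and 237 in daily controls and 275, 285 and 291 after daily PM2.5. The high dose gave log2 ratios to control of -0.79, -0.12 and -0.83 in experiments 1, 2 and 3. The fitted log2 fold change was -0.49 (SE 0.361, adjusted p = 0.464, edgeR), and -0.84 (adjusted p = 0.00493) without 24-h experiment 2. After daily PM2.5 it was 0.22 (SE 0.356, adjusted p = 0.86, edgeR).

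**Figure D4:**
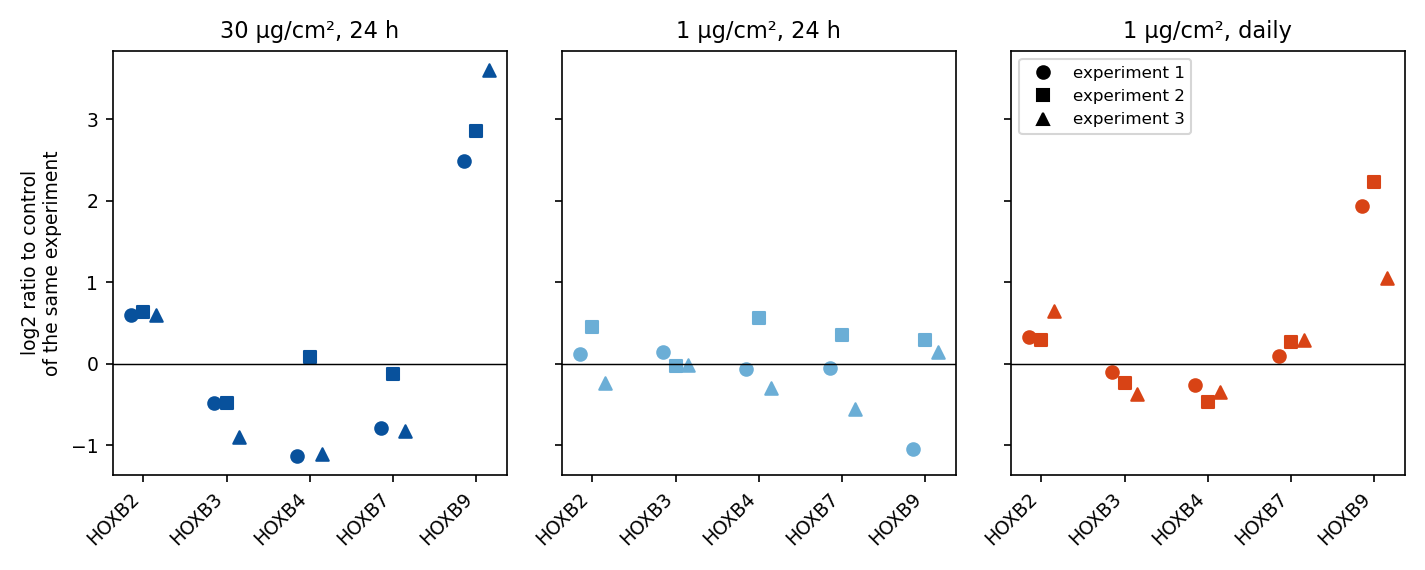
Change of the 5 tested HOXB genes within each experiment. The y axis is the log2 ratio of scaled CPM to the control of the same experiment, panels are the 3 exposures and marker shape is the experiment. HOXB9 is positive in all 3 experiments of the high-dose and of the daily exposure (1.05 to 3.60), HOXB2 is positive in the same 6, and HOXB4 after the high dose is at -1.13 and -1.10 in experiments 1 and 3 and at 0.09 in experiment 2.

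With the replicate block, 4 of the 11 tested HOX members were called after 30 µg/cm2 against control (HOXB2 and HOXB9 higher, HOXB3 and HOXB4 lower), where 15.2% of all genes were called, 7.36% higher and 7.87% lower. Without 24-h experiment 2 it was also 4, with HOXB3, HOXB4 and HOXB7 lower and HOXB9 higher, where 19.1% of all genes were called. Against 1 µg/cm2 there were 2 calls, 3 with the block (HOXB3, HOXB4 and HOXB9, 15.6% of all genes called) and 4 without 24-h experiment 2 (17.3% of all genes). After daily PM2.5, HOXB9 was called in each of these fits (4.39% of all genes called with the block and 6.03% without 24-h experiment 2). The summed HOXB level did not show these opposite movements, at 35.8 ± 3.86 CPM (SD, n = 3) in 24-h controls, 37.4 ± 10.2 after 1 µg/cm2, 35.4 ± 7.78 after 30 µg/cm2, 33.3 ± 1.62 in daily controls and 36.1 ± 0.962 after daily PM2.5.

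At 1 µg/cm2 for 24 h, 0 of the 11 tested HOX members were called by edgeR or DESeq2, 0 had an unadjusted p under 0.05, and 0.0625% of all genes were called (0.42% with the block, which also called 0 members). Intervals were wide for the rarer members, as for HOXA3 (log2 fold change 1.01, 95% interval -0.05 to 2.07, edgeR). Between daily and 24-h controls 0 members were called by either tool, with 1 (HOXB9) at an unadjusted p under 0.05, although 21.9% of all genes were called. The median log2 fold change of the 11 members was -0.01 after 30 µg/cm2, 0.05 after 1 µg/cm2 and 0.22 after daily PM2.5, against 0.03, 0.01 and 0.01 over all tested genes.

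**Figure D5:**
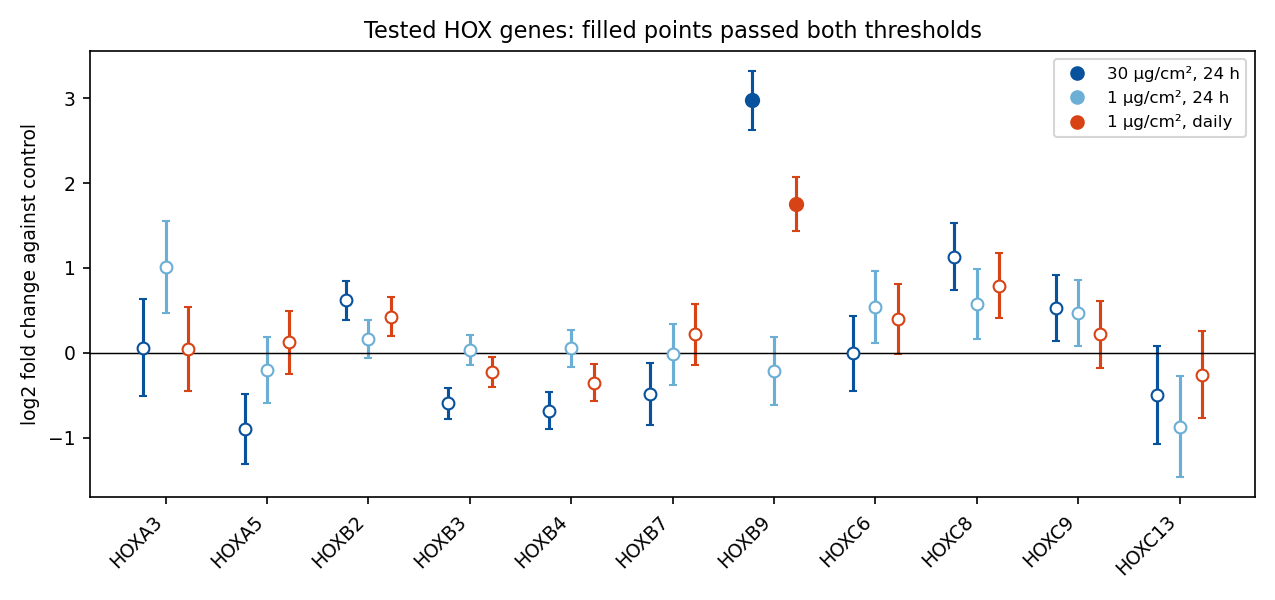
Log2 fold changes of the 11 tested HOX genes against the control of the same protocol. Points are edgeR estimates (y axis), bars are ± 1 SE, colours are the 3 exposures, and filled points passed both thresholds in the fit without the replicate block. HOXB9 is the gene with filled points, at 2.97 after 30 µg/cm2 for 24 h and 1.75 after daily 1 µg/cm2.

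Tested members of the HOXC cluster were rare, between 1 and 26 counts in a library. HOXC8, a gene of the trunk, had 9, 3 and 9 counts in 24-h controls, 13, 4 and 13 after 1 µg/cm2, 13, 19 and 12 after 30 µg/cm2, 7, 12 and 9 in daily controls and 19, 20 and 14 after daily PM2.5. Both the high dose and the daily exposure lay above their controls without overlap. Its log2 fold changes were 1.13 (SE 0.399, adjusted p = 0.0934 by edgeR) and 0.79 (SE 0.380, adjusted p = 0.435), and neither was called. HOXC9 had 14, 7 and 12 counts in 24-h controls, 13, 14 and 15 after 1 µg/cm2, 13, 22 and 11 after 30 µg/cm2, 12, 13 and 6 in daily controls and 14, 17 and 9 after daily PM2.5. In CPM both 24-h exposures lay just above control without overlap (log2 fold change 0.53, SE 0.390, adjusted p = 0.458, edgeR, for 30 µg/cm2), and the daily groups overlapped. HOXC6 and HOXC9 share 73 exon bases, and HOXC6 shares 484 with HOXC4. HOXC6 and HOXC13 ranged from 0.253 to 0.827 TPM and from 0.0617 to 1.41 TPM.

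In the HOXA cluster, HOXA5, the gene tied to lung development, had 13, 6 and 15 counts in 24-h controls, 11, 9 and 7 after 1 µg/cm2, 5, 6 and 6 after 30 µg/cm2, 6, 15 and 13 in daily controls and 12, 15 and 13 after daily PM2.5. Its log2 fold change at the high dose was -0.90 (SE 0.411, adjusted p = 0.201, edgeR), which did not pass the test. HOXA3 had 5, 9 and 10 counts in 24-h controls, 24, 3 and 23 after 1 µg/cm2, 10, 8 and 7 after 30 µg/cm2, 13, 17 and 24 in daily controls and 12, 30 and 19 after daily PM2.5. Experiment 2 held the low value after 1 µg/cm2. HOXA3 shares 374 exon bases with the antisense transcript HOXA-AS2, which had at most 11 counts. HOXA3 exceeded 24-h controls in all daily controls (log2 difference 0.99, SE 0.539, adjusted p = 0.188, edgeR), and reached an adjusted p of 0.036 without 24-h experiment 2 (log2 difference 1.25), where 31.0% of all genes were called.

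The HOXD cluster was near silent. HOXD8 had no count in the 6 libraries of the 24-h control and 1 µg/cm2 conditions, 1, 0 and 1 after 30 µg/cm2, 2, 1 and 1 in daily controls and 3, 1 and 6 after daily PM2.5. HOXD11 had 1 count in 1 library. No fold is given for genes at these counts.

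Groups that do not overlap are common with 3 libraries each, so these counts are read beside all genes. After 30 µg/cm2, 4 of 11 members lay above control without overlap (HOXB2, HOXB9, HOXC8 and HOXC9, 11.7% of all genes) and 1 below (HOXB3, 11.1%). After 1 µg/cm2 it was 1 above (HOXC9, 2.32%) and 0 below (2.13%). The high against the low dose at 24 h gave 1 above (HOXB9, 11.5%) and 2 below (HOXB3 and HOXB4, 10%). Daily PM2.5 gave 3 above (HOXB2, HOXB9 and HOXC8, 21.3%) and 1 below (HOXB4, 21.6%). Daily against 24-h controls gave 3 above (HOXA3, HOXB9 and HOXC13, 27.6%) and 1 below (HOXB2, 24.7%).

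Of the cofactors through which HOX proteins select DNA, 8 are described, and all 8 were tested. MEIS1, which binds PBX and 5′ HOX proteins, fell by 1.75 (log2) at the high dose against control (SE 0.311, adjusted p = 0.00274, edgeR). It was the 1 cofactor of the 8 called there, beside 8.07% of all genes. Against 1 µg/cm2 MEIS1 was also lower (-1.44), where 7.84% of all genes were called. With the block, which called 15.6% of all genes there, PBX4 was lower as well (-0.71, adjusted p = 0.00394, edgeR). PBX4 is of the family that pairs with HOX proteins on DNA. Single and daily 1 µg/cm2 each gave 0 cofactor calls in edgeR, with or without the block, 0 in DESeq2 and 0 at an unadjusted p under 0.05. PBX3 was higher in daily than in 24-h controls (0.87), the 1 of 8 called there, beside 21.9% of all genes. MEIS3 was the most abundant cofactor, with a mean of 30.7 TPM. The list's median log2 fold change at the high dose was -0.08.

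Among 37 Polycomb and Trithorax regulators, all tested, 0 were called after 30 µg/cm2 by edgeR without the block, where 8.07% of all genes were called. At an unadjusted p under 0.05 there were 8, beside 4161 of all 17599 genes. DESeq2 called 2, beside 10.4% of all genes. With the block 4 of the 37 were called beside 15.2% of all genes, JARID2 (1.12), KDM6B (0.84) and PHC1 (0.78) higher and CBX2 (-0.66) lower. The same 4 genes were called with the block against 1 µg/cm2, beside 15.6% of all genes. JARID2 recruits the Polycomb methyltransferase and KDM6B removes its mark. After daily PM2.5, 0 were called by edgeR or DESeq2, with 1 at an unadjusted p under 0.05, and 4 with the block, all lower, PHC3 (-0.99) and the Trithorax-type methyltransferases KMT2A (-0.61), KMT2C (-0.81) and KMT2D (-0.64), where the block called 4.39% of all genes. A single 1 µg/cm2 gave 0 calls by edgeR, by DESeq2 and with the block, and 1 at an unadjusted p under 0.05. Between controls CBX7 (1.01) and the demethylase KDM6A (0.87) were higher and MEN1 (-0.61), a partner of the KMT2 enzymes, was lower. These were 3 of the 37, beside 21.9% of all genes. The most abundant of the list was GMNN, geminin, at a mean of 181 TPM. Median log2 fold changes of the list were -0.0025 at the high dose and 0.01 after daily PM2.5.

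Of 21 retinoid and CDX input genes 13 were tested. The retinoic acid receptor RARG fell by 1.03 after 30 µg/cm2 (SE 0.241, adjusted p = 0.0145, edgeR), and ALDH1A3, an enzyme that makes retinoic acid and the most abundant of the list (mean 48.3 TPM), rose by 0.92 (SE 0.265, adjusted p = 0.0414). These were the 2 of 13 called there, beside 8.07% of all genes. RARG was also lower against 1 µg/cm2 (-1.22), the 1 of 13 called, beside 7.84% of all genes. With the block DHRS3, which reduces retinal back to retinol, was higher after 30 µg/cm2 (1.90) and after a single 1 µg/cm2 (2.0), and ALDH1A3 after the latter (0.72). The block called 3 of 13 after 30 µg/cm2, beside 15.2% of all genes, and 2 of 13 after the single dose, beside 0.42%. Against 1 µg/cm2 the block also called the carrier CRABP2 (-0.67, adjusted p = 0.0242, edgeR) and STRA6, the receptor through which cells take up retinol (-1.92, adjusted p = 0.0229), lower after the high dose. The block called 3 of 13 in that comparison, beside 15.6% of all genes. Without the block 0 were called after a single or a daily 1 µg/cm2 by edgeR or DESeq2 (0.0625% and 0.227% of all genes in edgeR). In each, 2 had an unadjusted p under 0.05. Between controls RARB (1.73) and CRABP2 (1.40) were higher and ALDH1A1 (-2.93) lower in the daily protocol. These were 3 of 13, beside 21.9% of all genes.

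Noncoding and neighbouring genes of the clusters were mostly rare, and 7 of 27 were tested. HOXB-AS1 rose after 30 µg/cm2 with the block (0.70, adjusted p = 0.0162, edgeR) and was not called without it. The block called 2 of 7 there, beside 15.2% of all genes. HOXB-AS1 shares 87 exon bases with HOXB2 and 374 with HOXB3, both on the other strand. The strand used in counting is not given, so counts of HOXB-AS1 are uncertain where reads fall there. TTLL6, a coding neighbour of the HOXB cluster with at most 29 counts, fell by 2.27 at the high dose (SE 0.615, adjusted p = 0.0312, edgeR). It was also lower against 1 µg/cm2 (-2.54). It was the 1 of 7 called in each comparison without the block (8.07% and 7.84% of all genes). HOTTIP, HOTAIR and HOXC-AS3 had at most 1, 2 and 1 counts in a library. Without the block neither 1 µg/cm2 exposure gave a call in edgeR, with 0 after the single and 2 after the daily exposure at an unadjusted p under 0.05, and 0 and 1 in DESeq2. With the block CBX5, which encodes a heterochromatin protein, was lower after daily PM2.5 (-0.62, adjusted p = 0.0103, edgeR) and 0 were called after the single exposure. In these 2 comparisons the block called 4.39% and 0.42% of all genes. Between controls SKAP2 (0.66) and CBX5 (0.90) were higher in the daily protocol, 2 of 7 beside 21.9% of all genes. MTX2, next to the HOXD cluster, was the most abundant neighbour at a mean of 118 TPM, while most HOXD genes had no count.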

How the data were processed

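RNA-seq counts per gene were used from 15 libraries of BEAS-2B cells. The authors deposited raw counts per gene with exon lengths, made per their methods from poly-A selected single-end reads aligned with STAR and counted with featureCounts; per the labels the build is hg19 and per the methods GRCh38, and 99.9% of 57437 annotated genes matched GRCh38 positions, which are used here. Strand and overlap options of the counting are not given in the sources used here.

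Counts of 21460981 to 34724765 per library were filtered with filterByExpr by condition (17599 genes kept), scaled by TMM and fitted with the quasi-likelihood model of edgeR 4.0.16 in R 4.3.3 (one mean per condition, all 15 libraries). A call needed an adjusted p (Benjamini-Hochberg) below 0.05 together with a log2 change of 0.6 or more in either direction. SEs are the log2 fold change over the root of its F statistic. TPM was computed from counts and deposited lengths. The script was tested on simulated data. A limit of 3 counts was used for genes without counts, for counting error only.

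The experiment number pairs the libraries of a protocol, as the series record gives it as the experimental batch. Deviations from the group means correlated at 0.201 to 0.721 between libraries of the same 24-h experiment and at 0.121 to 0.181 in the daily protocol (mean over different experiments -0.23 and -0.08). A second fit held this number as a replicate block. Other alternatives were RLE scaling, library totals, no filter, the compared groups alone, the likelihood ratio test, DESeq2 1.42.0, each library left out, and the libraries of 24-h experiment 2 left out. The last was also combined with the block, an alternative chosen after seeing the data.

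Members and lists were chosen with earlier results of these data known. Members called in any contrast, with or without the block, and the 2 of each cluster with the highest mean TPM are given by library. In other lists, called genes (at most 6) and the most abundant one are named, with calls under the block added after their values were seen, as were HOTTIP, HOTAIR and HOXC-AS3. A few genes of the clusters and lists are not reported here and were left out of the lists' counts.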

Additional observations from a re-analysis of the deposited data

Results flagged for a closer look

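HOXB7 responded differently to daily 1 µg/cm2 and to 30 µg/cm2 for 24 h in the fit with the replicate block, where the difference of the log2 responses was 0.79 (SE 0.233, adjusted p = 0.0298 by edgeR's test of the interaction). It was flagged because the difference itself passed the test. Without the block it was 0.70 (SE 0.507, adjusted p = 0.529), and without 24-h experiment 2 it was 1.06 (adjusted p = 0.00556). With each library left out and no block it ran from 0.44 (without 30 µg/cm2 library 1) to 1.21 (without 30 µg/cm2 library 2) and was called in 0 of 15 cases, with edgeR adjusted p-values of 0.110 to 0.815. With the block, 14.6% of all tested genes were called in this contrast, and 21.6% were called without 24-h experiment 2.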

How the results depend on the processing

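HOXB9 kept its direction and its call against control and against 1 µg/cm2 after 30 µg/cm2 under every alternative run. The adjusted p-values were up to 0.0189 and 0.0388 (edgeR and DESeq2). After daily PM2.5, HOXB9 kept both under all 8 that did not leave out a single library (adjusted p 1.5e-05 to 0.0444, edgeR and DESeq2). Its log2 fold change after a single 1 µg/cm2 ran from -0.36 to 0.0322 with each library left out, turning to 0.0322 without the library of experiment 1 of that condition, and was called in none of these.

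The number of HOX members called after 30 µg/cm2 (1) became 4 with the replicate block, 2 with RLE scaling or the likelihood ratio test, 3 with DESeq2, and 4 without 24-h experiment 2, with or without the block. The share of all genes called went from 8.07% to 15.2% with the block, 8.09% with RLE scaling, 10.4% with the likelihood ratio test or DESeq2, 19.1% without experiment 2 and 20.6% with both. Against 1 µg/cm2 the 2 calls became 1 without a filter or with the compared groups alone (4.38% and 0.918% of all genes, against 7.84%), and 4 without 24-h experiment 2 (17.3%; 5 with the block, 18.8%). Contrasts with 0 calls reached 1 for a single 1 µg/cm2 without experiment 2 and with the block (3.29% of all genes), 1 between controls without experiment 2 (31.0%), 1 for daily against single 1 µg/cm2 without experiment 2 (9.84%) and 2 with the block added (12.3%), and for daily against 30 µg/cm2 1 with the block (14.6%), 2 without experiment 2 (21.6%) and 3 with both (23.8%). Leaving out each library gave 1 to 4 calls after 30 µg/cm2, 1 to 3 against 1 µg/cm2, 0 to 1 after daily PM2.5 and 0 to 1 between controls.

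List counts are over the 5 comparisons of conditions, and with the block they take the control comparison, which the block could not fit, from the fit of all libraries without it. The 2 cofactors called became 4 without experiment 2, also with the block, and 2 to 4 with each library left out. The 3 Polycomb and Trithorax genes became 11 with the block (8 called by the block, and the 3 of the control comparison), 8 with no filter or the compared groups alone, 5 with DESeq2 or the likelihood ratio test, 12 without experiment 2, 11 with both, and 1 to 8 with each library left out. The 5 retinoid inputs became 3 with the compared groups alone and 2 to 6 with each library left out. The share of all genes called moved too. At 30 µg/cm2 against control it went from 8.07% to 15.2% with the block and 19.1% without experiment 2. It was 4.56% with no filter and 2.23% with the compared groups alone. After daily PM2.5 it went from 0.227% to 4.39%, 6.03%, 0.252% and 6.23% in the same order. Summed HOXB after daily PM2.5 was 39.2 CPM by library totals against 36.1 by TMM. The causes were not tested. The block could not be fitted between the controls of both protocols, whose numbers mark different experiments, and changed no other HOX count by over 1.5 times. Most HOX genes hold too few counts for a modest change to be detectable at this depth.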
